A study of Mus musculus with 6 samples.

Results

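The genes described here are Guca2a, Guca2b, Gucy2c and Prkg2, which encode guanylin, uroguanylin, their shared receptor and a kinase that acts downstream of it. They were chosen by gene symbol, and all 4 were found among the 24346 gene entries of each library. Their transcripts were measured by RNA sequencing of epithelium from distal, middle and proximal colon. The mice were wild-type and untreated, of the inbred strain C57BL/6J. There were 6 libraries, 1 from females and 1 from males for each region, so each region has n = 2 and each sex n = 3. The labels give neither the ages nor the number of mice behind a library, nor whether 1 set of mice gave all regions of a sex. The p-values therefore reflect spread among libraries that may share a source.

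Guanylin and uroguanylin are small peptide hormones that intestinal epithelial cells release into the gut lumen. They bind guanylate cyclase C, the product of Gucy2c, on the apical membrane, and the receptor then makes the intracellular messenger cGMP. In the intestine cGMP activates the membrane-bound kinase encoded by Prkg2, which promotes chloride and bicarbonate secretion through the channel Cftr. It also restrains sodium uptake through the exchanger Slc9a3. Bacterial heat-stable enterotoxins mimic the peptides at the same receptor and cause secretory diarrhoea.

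The ligand genes are neighbours on mouse chromosome 4 (GENCODE M21 on mm10). Guca2a lies on the plus strand from 119637704 to 119639471 and Guca2b on the minus strand from 119656607 to 119658954. They point towards each other with 17135 bases between them. Gucy2c lies on the minus strand of chromosome 6 from 136697284 to 136781765, and Prkg2 on the minus strand of chromosome 5 from 98929773 to 99037351. The active peptides come from the C-terminal ends of longer precursors, so the last 48 coding bases of each ligand gene, stop codon included, are shown to compare the hormones. They lie at chr4:119639228-119639275 on the plus strand for Guca2a and at chr4:119656792-119656839 on the minus strand for Guca2b (mm10, from the GENCODE transcripts). The capitals mark cysteine codons, which form the disulfide bonds that active guanylin peptides need.
Guca2a: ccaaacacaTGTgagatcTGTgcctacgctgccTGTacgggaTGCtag
Guca2b: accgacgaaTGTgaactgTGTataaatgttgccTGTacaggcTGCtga
Each end holds 4 cysteine codons at the same places, and 30 of the 48 bases are identical between the genes.

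The promoters of the ligand genes are shown because the level of each was lower in distal than in proximal colon. The sequences are from RefSeq on GRCm38.p6, the mm10 assembly, and run from 250 bases before the RefSeq start to 50 bases after it. For both ligand genes that start differs by some bases from the GENCODE start given above. RefSeq promoters were matched for 2 of the 4 genes. The Guca2a promoter is chr4:119637482-119637781 on the plus strand and the Guca2b promoter chr4:119658896-119659195 on the minus strand. The capitals mark matches on either strand to GATAAG, a core bound by GATA factors.
Guca2a promoter: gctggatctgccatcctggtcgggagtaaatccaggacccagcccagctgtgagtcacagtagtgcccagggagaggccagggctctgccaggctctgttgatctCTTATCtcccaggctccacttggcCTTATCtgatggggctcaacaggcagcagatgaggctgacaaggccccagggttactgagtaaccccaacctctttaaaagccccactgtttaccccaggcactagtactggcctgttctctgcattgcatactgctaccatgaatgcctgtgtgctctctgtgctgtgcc
Guca2b promoter: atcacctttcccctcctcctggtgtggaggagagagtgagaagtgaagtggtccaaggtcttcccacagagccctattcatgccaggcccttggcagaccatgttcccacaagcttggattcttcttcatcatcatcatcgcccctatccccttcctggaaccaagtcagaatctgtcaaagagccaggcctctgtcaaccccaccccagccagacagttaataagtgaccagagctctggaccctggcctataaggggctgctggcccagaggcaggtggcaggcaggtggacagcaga
The Guca2a promoter held 2 matches to GATAAG, both on the opposite strand, which begin 145 and 121 bases before the RefSeq start. The Guca2b promoter held 0 matches in this window. The motif was picked after the promoters had been read. Of 32851 promoters of this length, 7.44% hold at least 1 GATAAG on either strand. The share with 2 or more was not counted.

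The levels below are FPKM, which is scaled to transcript length and library size, as deposited by the authors. The libraries listed totals of 546269 to 612818 FPKM. Their depth, read from the spacing of the lowest values, was about 7.86 to 9.92 M (1e6) fragments, and it is approximate. Differences were fitted on log2(FPKM + 1) with limma, with region and sex as terms, over the 11815 genes that reached 1 FPKM in at least 2 libraries. All 4 genes were among these. A gene was called at a Benjamini-Hochberg adjusted p under 0.05. Over all 11815 genes the median log2 difference between distal and proximal colon was 0.01.

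All 4 genes fell in distal against proximal colon, least for the receptor and most for the kinase, whose transcript was near 0 there. In distal colon Guca2a averaged 33.4% of its proximal FPKM, Guca2b 35.3%, Gucy2c 69.2% and Prkg2 0.192%. Across all genes tested, 14.1% were called between distal and proximal colon in either direction and 7.64% were called lower, against 6.47% called higher. The distal and proximal libraries of each of the 4 genes did not overlap, which held for 29.5% of all genes in the same direction. In bulk libraries, fewer cells that express a gene and less of its RNA in each cell cannot be told apart.

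**Figure D1:**
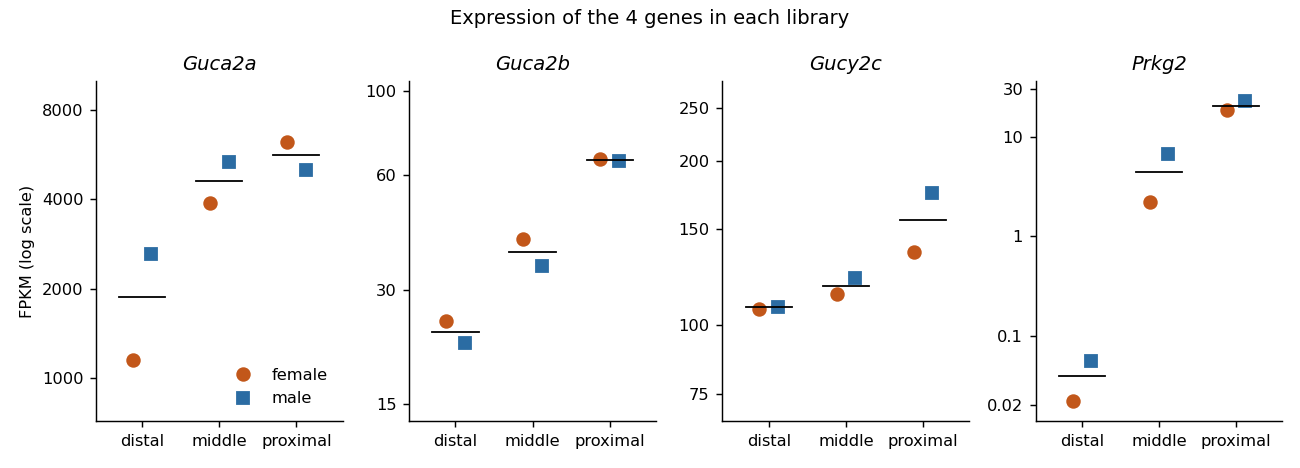
FPKM of Guca2a, Guca2b, Gucy2c and Prkg2 in each library (log scale, a separate axis range for each gene), with regions from left to right as distal, middle and proximal colon; circles are female and squares male libraries, and bars are the mean of the 2 libraries. The distal libraries lie below the proximal ones for each of the 4 genes, and Prkg2 falls below 0.1 FPKM in distal colon.

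Guca2a, the guanylin gene, was by far the more abundant ligand transcript. It was at 1148 FPKM in the female and 2612 FPKM in the male distal library, 3896 and 5351 FPKM in the female and male middle libraries, and 6248 and 5005 FPKM in the female and male proximal libraries. Distal colon lay below the other regions in each sex, whereas the middle and proximal libraries overlapped. By FPKM, Guca2a ranked 93 and 17 among all entries in the female and male distal libraries, against 3 in each proximal library. The mean was 1880 ± 1035 FPKM in distal and 5627 ± 879 FPKM in proximal colon (SD, n = 2 each). The fitted log2 difference, -1.69, had an SE of 0.38 and a limma adjusted p = 0.041, with a larger difference in females (-2.44) than in males (-0.94). The call was lost without any single library other than the male proximal one. The limma adjusted p was then 0.285 without the female distal, 0.087 without the male distal, 0.136 without the female proximal, 0.061 without the female middle and 0.059 without the male middle library, and the log2 difference ranged from -2.26 to -1.12.

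Between middle and proximal colon Guca2a did not pass the test (log2 difference -0.29, SE 0.38, limma adjusted p = 0.773), with 4624 ± 1029 FPKM in middle and 5627 ± 879 FPKM in proximal colon (SD, n = 2 each). The female difference was -0.68 and the male difference 0.10. Between distal and middle colon the log2 difference was -1.40 (SE 0.38, limma adjusted p = 0.221), and it was negative in both sexes.

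Guca2b, the uroguanylin gene, showed the same direction at a far lower level. It was at 24.8 and 21.7 FPKM in the female and male distal libraries, 40.7 and 34.7 FPKM in the middle libraries, and 66.3 and 65.5 FPKM in the proximal libraries. The regions did not overlap and ran in order from distal, the lowest, to proximal, the highest. Against proximal colon, Guca2b fell by 1.47 in distal colon (log2 scale, SE 0.10, limma adjusted p = 0.0023), and the call held without any single library, with an adjusted p of at most 0.021. In middle against proximal colon it fell by 0.79 (SE 0.10, limma adjusted p = 0.030). There 1.25% of all genes were called lower, and 22.2% were lower without overlap. The call for the middle colon was lost without the female middle (limma adjusted p = 0.193), the male middle (0.137) or either distal library (0.052), and with sex left out of the model (0.080). Between distal and middle colon the log2 difference was -0.67 (SE 0.10) and did not pass (limma adjusted p = 0.081). There 0.389% of all genes were called lower, and 19.1% were lower without overlap. None of the 4 genes was called by limma between distal and middle colon, whereas 3 of them had an unadjusted p under 0.05, as did 12.7% of all genes.

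In these libraries the balance of the ligand transcripts showed no single direction along the colon. The ratio of Guca2a to Guca2b FPKM was 46.3 in the female and 120.3 in the male distal library, 95.8 and 154 in the female and male middle libraries, and 94.3 and 76.4 in the female and male proximal libraries. The distal and proximal libraries overlapped, with a mean log2 ratio of 6.22 ± 0.97 in distal and 6.41 ± 0.21 in proximal colon (SD, n = 2 each; exact permutation test, two-sided p = 1). The middle libraries lay above the proximal ones without overlap, by 0.52 on the log2 scale (exact permutation test, two-sided p = 0.333). That difference was 0.02 in females and 1.01 in males. With 2 libraries against 2 the smallest p this test can give is 0.333, so it can show neither a shift nor its absence. The transcripts are short, at most 594 bases for Guca2a and 697 bases for Guca2b in GENCODE, so the ratio between the genes depends on how the authors' software corrected for transcript length.

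Gucy2c, the receptor gene, had the smallest difference of the 4 between distal and proximal colon. It was at 107 and 108 FPKM in the female and male distal libraries, 114 and 122 FPKM in the middle libraries, and 136 and 175 FPKM in the proximal libraries. The regions did not overlap, although the female middle library (114 FPKM) was within a few FPKM of the distal ones. The mean was 108 ± 0.731 FPKM in distal and 156 ± 27.8 FPKM in proximal colon (SD, n = 2 each) and the fitted log2 difference was -0.52 (SE 0.12, limma adjusted p = 0.049). This call lay at the threshold, and was lost with sex left out of the model (limma adjusted p = 0.077) and without any single library other than the female proximal one. The adjusted p was 0.141 without the female distal, 0.393 without the male distal, 0.079 without the female middle, 0.078 without the male middle and 0.153 without the male proximal library, with log2 differences from -0.67 to -0.36. Neither middle against proximal (-0.39, SE 0.12, limma adjusted p = 0.178) nor distal against middle colon (-0.13, SE 0.12, limma adjusted p = 0.755) passed.

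Prkg2, which encodes the kinase, differed far more along the colon than the receptor. It was at 0.0224 FPKM in the female and 0.0566 FPKM in the male distal library, 2.21 and 6.69 FPKM in the female and male middle libraries, and 18.4 and 22.7 FPKM in the female and male proximal libraries. No region overlapped another. On the estimated depth the distal values stand for about 1 fragment in the female and 2 fragments in the male library, against about 785 and 866 fragments in the female and male proximal libraries. By those fragments, the distal level was 0.115% of the proximal one in females (95% exact interval 0.0029% to 0.64%) and 0.235% in males (0.028% to 0.85%), and the intervals cover counting error only.

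Prkg2 fell by 4.37 (log2 of FPKM + 1) in distal against proximal colon (SE 0.31, limma adjusted p = 0.0023), and the call held without any single library. This scale understates the change of a gene so near 0, and with a pseudocount of 0.1 FPKM the log2 difference was -7.22. In middle against proximal colon Prkg2 fell by 2.11 (SE 0.31, limma adjusted p = 0.038), with 4.45 ± 3.17 FPKM in middle and 20.6 ± 3.03 FPKM in proximal colon (SD, n = 2 each). The call for the middle colon was lost without the female middle library (limma adjusted p = 0.173), with sex left out of the model (0.105) and with a pseudocount of 0.1 (0.055). Between distal and middle colon the log2 difference was -2.26 (SE 0.31, limma adjusted p = 0.066), and with a pseudocount of 0.1 it was -4.84 and passed (limma adjusted p = 0.021).

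**Figure D2:**
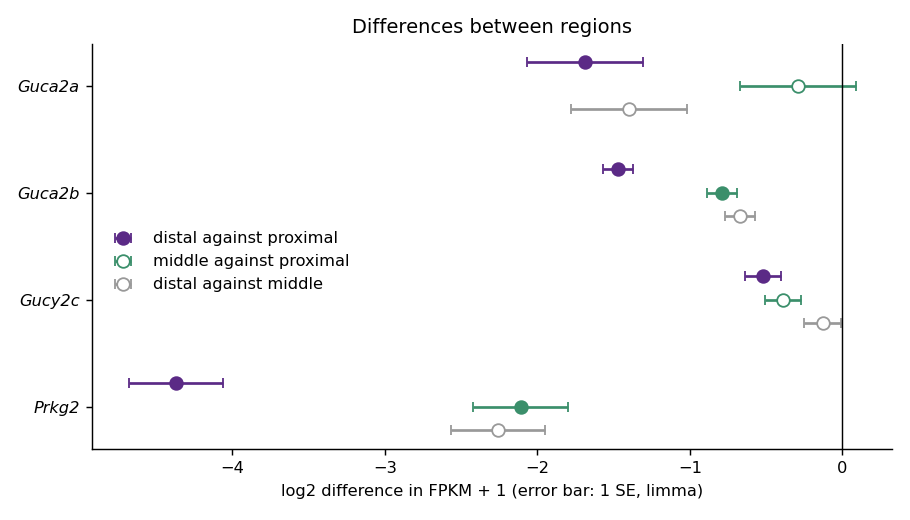
Log2 differences in FPKM + 1 for the 4 genes (error bars 1 SE, limma), for distal against proximal, middle against proximal and distal against middle colon; filled circles have an adjusted p under 0.05 and open circles do not. All 12 fitted differences are below 0; the calls are 4 for distal against proximal colon, 2 for middle against proximal colon (Guca2b and Prkg2) and 0 for distal against middle colon.

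Kinase and receptor transcripts therefore stood in very different proportion at the ends of the colon. The ratio of Prkg2 to Gucy2c FPKM was 0.000209 in the female and 0.000523 in the male distal library, 0.0194 and 0.0549 in the female and male middle libraries, and 0.135 and 0.13 in the female and male proximal libraries. The difference between distal and proximal colon was -8.65 on the log2 scale without a pseudocount, and the libraries of the regions did not overlap (exact permutation test, two-sided p = 0.333, the smallest possible). This ratio was added after the values were seen, and its distal values rest on the 1 and 2 fragments given above.

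As a test of any difference among the 3 regions, limma's moderated F-test called Guca2b and Prkg2 (adjusted p = 0.0065 for each), but neither Guca2a (adjusted p = 0.083) nor Gucy2c (adjusted p = 0.105). Of all genes, 8.82% were called by this test. The order without overlap from distal, the lowest, to proximal, the highest, held for Guca2b, Gucy2c and Prkg2, and 6.59% of all genes showed it. Between the sexes, limma called none of the 4 genes, and 0 of them had an unadjusted p under 0.05, against 10.6% of all genes. The female against male log2 differences were -0.44 for Guca2a, 0.14 for Guca2b, -0.16 for Gucy2c and -0.53 for Prkg2 (limma adjusted p = 0.626, 0.576, 0.598 and 0.504), and 0.0423% of all genes were called. The female and male libraries overlapped for each gene, but each sex spans all 3 regions, so this overlap does not compare the sexes within a region. Within every region Gucy2c and Prkg2 were higher in the male library, Gucy2c barely so in distal colon (108 against 107 FPKM). Guca2b was higher in the female library in every region. Guca2a was higher in the male library in distal and middle colon and in the female one in proximal colon. How many of all genes kept 1 direction was not counted.

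Other sources of cGMP were scarcely detected in these cells. Of 16 listed genes for natriuretic peptides, their receptors, soluble guanylate cyclase subunits and the retinal and olfactory cyclases, 14 were in the files. All 14 were under 1 FPKM in every library and 7 were listed at 0 throughout, so none was tested. The highest on average were Nppc and Nppb, natriuretic peptide genes. Nppc was at 0 and 0.151 FPKM in the female and male distal libraries, against 0.399 and 0.297 FPKM in the proximal ones. Nppb was at 0.439 FPKM in the male distal library and listed at 0 in the others.

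Genes that remove cGMP differed in both directions. Among the 10 of 18 phosphodiesterase and exporter genes that could be tested, 3 fell in distal against proximal colon, 1 rose and 6 did not pass, with a median log2 difference of -0.14. Over all genes 7.64% were called lower and 6.47% higher. Of the 3 that fell, Pde11a passed the filter only through the proximal libraries, where it was high, so the filter itself favoured its fall. The 10 include Pde6d (log2 difference -0.14, limma adjusted p = 0.627), which encodes no catalytic subunit of a phosphodiesterase. Abcc5, an exporter that can carry cyclic nucleotides, was at 0.341 and 0.581 FPKM in the female and male distal libraries, 1.67 and 2.68 FPKM in the middle libraries and 6.78 and 11.6 FPKM in the proximal libraries. It fell by 2.76 in distal colon (SE 0.18, limma adjusted p = 0.0023) and fell by 1.66 in middle colon (SE 0.18, limma adjusted p = 0.026), each against proximal colon. In middle against proximal colon 1.25% of all genes were called lower. The Abcc5 call for middle colon was lost under at least 1 other setting and without at least 1 library. The regions of Abcc5 did not overlap, in the same order as those of Prkg2, which 6.59% of all genes showed.

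Abcc4, a related exporter, moved the other way, with 5.65 and 5.30 FPKM in the female and male distal libraries and 2.56 and 2.48 FPKM in the proximal libraries. The rise was 0.88 in log2 units (SE 0.18, limma adjusted p = 0.035). Pde2a, a phosphodiesterase that cGMP stimulates, fell by 0.78 (limma adjusted p = 0.024), to 20.7 ± 2.02 FPKM in distal, against 36.2 ± 1.05 FPKM in proximal colon (SD, n = 2 each). Pde11a, which hydrolyses cAMP as well as cGMP, fell by 1.22 (limma adjusted p = 0.028) at low levels, with 0.0861 ± 0.0141 FPKM in distal and 1.56 ± 0.594 FPKM in proximal colon (SD, n = 2 each). Pde9a and Pde5a, cGMP-specific phosphodiesterases, did not pass: Pde9a was at 144 and 186 FPKM in the female and male distal libraries, against 148 and 209 FPKM in the proximal ones (limma adjusted p = 0.562). Pde5a averaged 11.6 ± 0.489 FPKM in distal and 15.5 ± 0.501 FPKM in proximal colon (SD, n = 2 each; limma adjusted p = 0.075). Pde9a had the highest FPKM of the phosphodiesterase genes in the list. Of the 4 calls in this list between distal and proximal colon, that of Abcc5 held without any single library. The calls of Abcc4 and Pde2a were lost without either distal library or the female proximal one. That of Pde11a was lost in each of the 4 fits without a distal or a middle library, and it fell under the filter without either proximal library.

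Among other targets of cGMP, Prkg1, the kinase gene best known from smooth muscle, was listed at 0 in all 6 libraries. Vasp, a cytoskeletal protein that cGMP-dependent kinases phosphorylate, was the 1 tested member of the 9 in the files. It was at 255 and 248 FPKM in the female and male distal libraries and 190.4 and 161 FPKM in the proximal libraries. It did not pass (log2 difference 0.52, SE 0.12, limma adjusted p = 0.0502). The libraries did not overlap, which held for 30.8% of all genes in the same direction. The other 8, among them the cyclic nucleotide-gated channel genes, were under 1 FPKM everywhere.

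Transporters and scaffolds that the pathway acts on differed in both directions. Of 12 tested members, 4 fell, 1 rose and 7 did not pass between distal and proximal colon, with a median log2 difference of -0.41, against 7.64% called lower and 6.47% called higher over all genes. Cftr, the chloride channel, was at 26.8 and 32.0 FPKM in the female and male distal libraries, against 47.1 and 44.7 FPKM in the proximal ones, and fell by 0.63 (SE 0.12, limma adjusted p = 0.024). Slc12a2, which loads cells with chloride from the blood side, fell by 0.60 (limma adjusted p = 0.015), and Slc9a2, a sodium-proton exchanger, fell by 0.65 (limma adjusted p = 0.034). Slc9a3r2, a scaffold that can join the kinase to the exchanger Slc9a3, was at 2.03 and 2.91 FPKM in the female and male distal libraries and 5.72 and 5.54 FPKM in the proximal libraries, and fell by 0.95 (SE 0.16, limma adjusted p = 0.019). Pdzk1, another scaffold of this family, rose by 0.79 (limma adjusted p = 0.047).

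Slc9a3, the exchanger that the kinase inhibits, did not pass between distal and proximal colon (log2 difference -1.33, SE 0.56, limma adjusted p = 0.189). It was at 38.3 FPKM in the female and 188 FPKM in the male distal library, and at 241 and 194 FPKM in the female and male proximal libraries. The female distal library was low, as it was for Guca2a, and the male distal library lay just under the male proximal one. The calls in this list depended on the distal libraries, and 0 members were called without the female or without the male distal library. Without the female proximal library the call of Slc12a2 was the 1 kept.

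**Figure D3:**
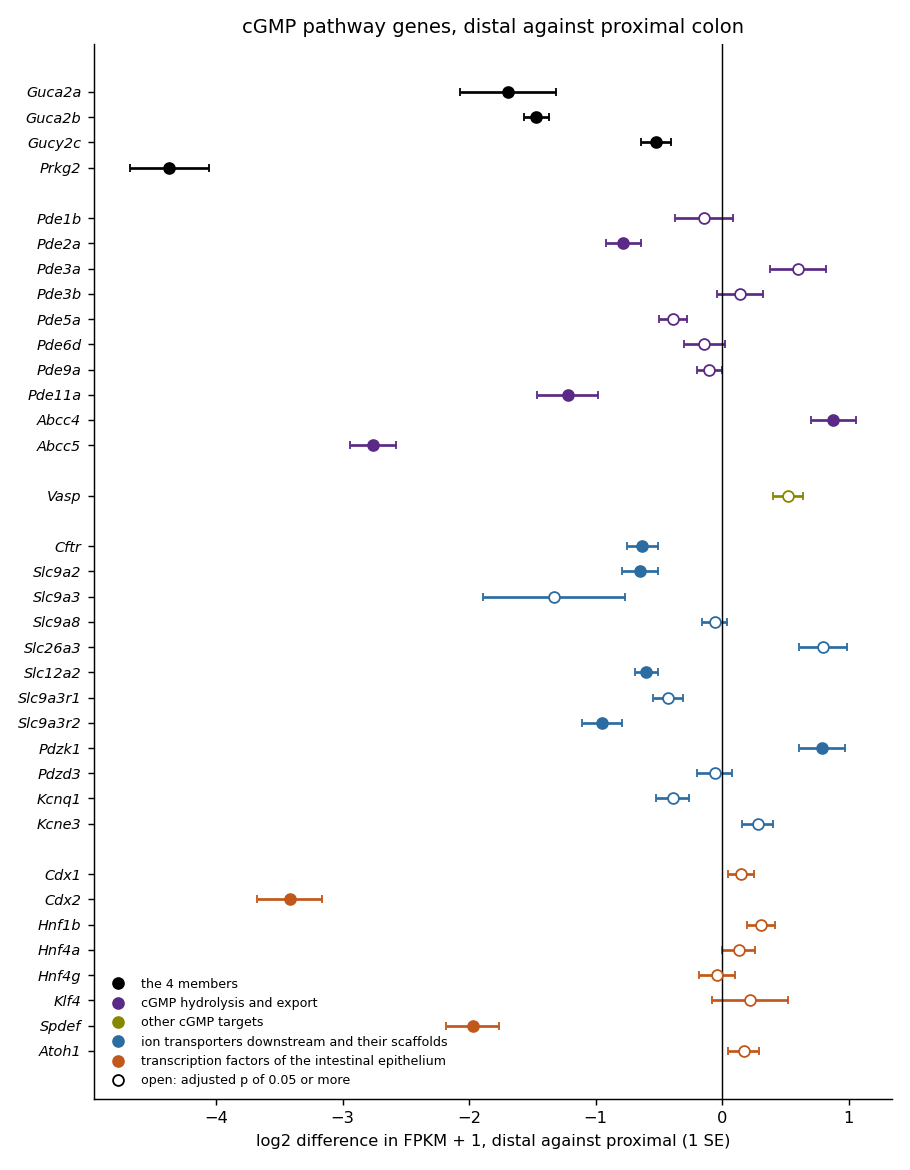
Log2 differences in FPKM + 1 between distal and proximal colon (error bars 1 SE, limma) for the 4 genes and for the tested members of the lists of cGMP removal, cGMP targets, transporters with their scaffolds, and transcription factors; filled circles have an adjusted p under 0.05 and open circles do not. Prkg2 (-4.37), Cdx2 (-3.42) and Abcc5 (-2.76) lie furthest to the left.

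Among 8 intestinal transcription factor genes, Cdx2 and Spdef fell in distal against proximal colon and 6 did not pass, against 7.64% of all genes called lower. Both calls held without any single library. Cdx2, a homeobox factor known to activate Gucy2c, fell by 3.42 (SE 0.26, limma adjusted p = 0.0028), while the receptor gene fell by 0.52. Spdef, a factor of goblet cell maturation, fell by 1.97 (SE 0.21, limma adjusted p = 0.0061). Hnf4a, also known to act on Gucy2c, was at 228 and 237 FPKM in the distal and 218 and 205 FPKM in the proximal libraries, females given first (limma adjusted p = 0.551). The part of Cdx2 or Hnf4a in the level of Gucy2c was not tested.

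Markers of the cells that could carry these transcripts were examined in the same libraries. The summed FPKM of 6 epithelial markers was 9168 and 8626 in the female and male distal libraries and 8742 and 7453 in the proximal libraries. Krt8 and Krt19 (limma adjusted p = 0.786 and 0.548) were the most abundant of them. Goblet cells are a known site of guanylin production, and 8 goblet markers summed to 8280 and 7130 FPKM in the female and male distal libraries, 14567 and 10049 FPKM in the middle and 5735 and 4667 FPKM in the proximal libraries. Of these markers Tff3, Clca1, Fcgbp and Zg16 rose and Muc2 and Spdef fell between distal and proximal colon. The list thus had no common direction, and its part in the Guca2a result was not tested. For this and the other marker lists, the shares over all genes were 7.64% called lower and 6.47% called higher. Zg16, the most abundant of them, averaged 3627 FPKM in distal and 1414 FPKM in proximal colon, and Muc2 averaged 299 FPKM in distal and 1490 FPKM in proximal colon. With sex left out of the model the 4 rises were no longer called (limma adjusted p = 0.065, 0.310, 0.087 and 0.057), whereas the falls of Muc2 and Spdef were (0.015 and 0.0094). The 8 markers of surface colonocytes summed to 19102 and 17609 FPKM in the distal libraries and 18873 and 29976 FPKM in the proximal libraries, females given first. Car1, Ceacam1 and Slc51a fell and 5 did not pass, and the call of Car1 was lost with sex left out of the model (limma adjusted p = 0.061). This list had no common direction either, with 4 of its 8 markers fitted below 0. Without passing, Aqp8, Car4, Slc26a3 and Lypd8 were fitted higher in distal colon (log2 differences 1.59, 1.07, 0.80 and 0.71) and Krt20 lower (-1.31). Car1 alone was at 19757 FPKM in the male proximal library. Of all calls among the markers, those of Spdef, Slc51a and Gcg held without any single library.

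Markers of rarer and foreign cells were lower in sum. Enteroendocrine markers summed to 121 to 162 FPKM in distal and 176 to 258 FPKM in proximal colon, where Chgb and Gcg fell in distal colon and Pyy rose. With sex left out of the model Pyy was not called (limma adjusted p = 0.139). Tuft cell markers summed to 2.05 to 2.55 FPKM in distal and 5.85 to 7.87 FPKM in proximal colon, and Trpm5 fell. The Trpm5 call was lost with no filter (limma adjusted p = 0.086), with quantile normalization (0.080), with sex left out of the model and in 5 of the 6 fits with a library left out. Leukocyte markers summed to 2.84 to 3.51 FPKM in distal and 8.61 to 14.7 FPKM in proximal colon, and Cd8a fell. The 4 tested ones, Ptprc, Cd3e, Cd3g and Cd8a, were all fitted below 0, but the list had no common direction. Lyz2, Csf1r and Cd79a, which were not tested, averaged 0.917, 0.0966 and 0.0565 FPKM in distal colon. In proximal colon these averaged less, at 0.335, 0.051 and 0.0497 FPKM. Cd8a reached 1 FPKM only in the proximal libraries, so the filter kept it through the region where it was high. The Cd8a call was lost with quantile normalization (limma adjusted p = 0.063) and in each of the 4 fits that could be made with a library left out (0.051 to 0.226). Thus the summed tuft cell and leukocyte markers were lower in distal colon, as Prkg2 and Abcc5 were, and their part in those results was not tested. In the female and male middle libraries, where Prkg2 lay between its distal and proximal levels, tuft cell markers summed to 8.50 and 11.9 FPKM and leukocyte markers to 10.1 and 2.85 FPKM. Paneth cell markers summed to 5.98 to 11.4 FPKM in distal, 21 to 201 FPKM in middle and 4.67 to 58.9 FPKM in proximal colon. Most of this was Ang4, at 9.80 and 3.35 FPKM in the female and male distal libraries, 197 and 19.4 FPKM in the middle and 54.4 and 2.53 FPKM in the proximal libraries (limma adjusted p = 0.324). Mmp7 fell, but it passed the filter only through the proximal libraries, at 2.81 FPKM in the female and 1.48 FPKM in the male. It was listed at 0 in the distal libraries, and a filter passed in this way itself favours a fall. Itln1 did not pass the test (log2 difference 0.43, limma adjusted p = 0.471), and Lyz1 stayed at 0.60 FPKM or lower in every library.

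Smooth muscle and fibroblast markers summed to 4.85 to 9.42 FPKM over the 6 libraries, with Acta2, Myh11 and Des at or near 0, and Tagln fell, a call lost in each of the 6 fits with a library left out. Crypt stem and cycling cell markers, led by Mki67 and Top2a, summed to 40.2 to 61.0 FPKM and none of the 5 tested passed. Of the endothelial markers, led by Pecam1 and Vwf, the 1 tested gene did not pass. For red blood cells Hba-a1 was at 34.9 and 129 FPKM in the female and male distal libraries and 38.5 and 135 FPKM in the proximal libraries, with males above females in each, and the related entry Hbb-bs was near 0 except in the male middle library. Globin genes have near-identical copies and their values are uncertain.

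**Figure D4:**
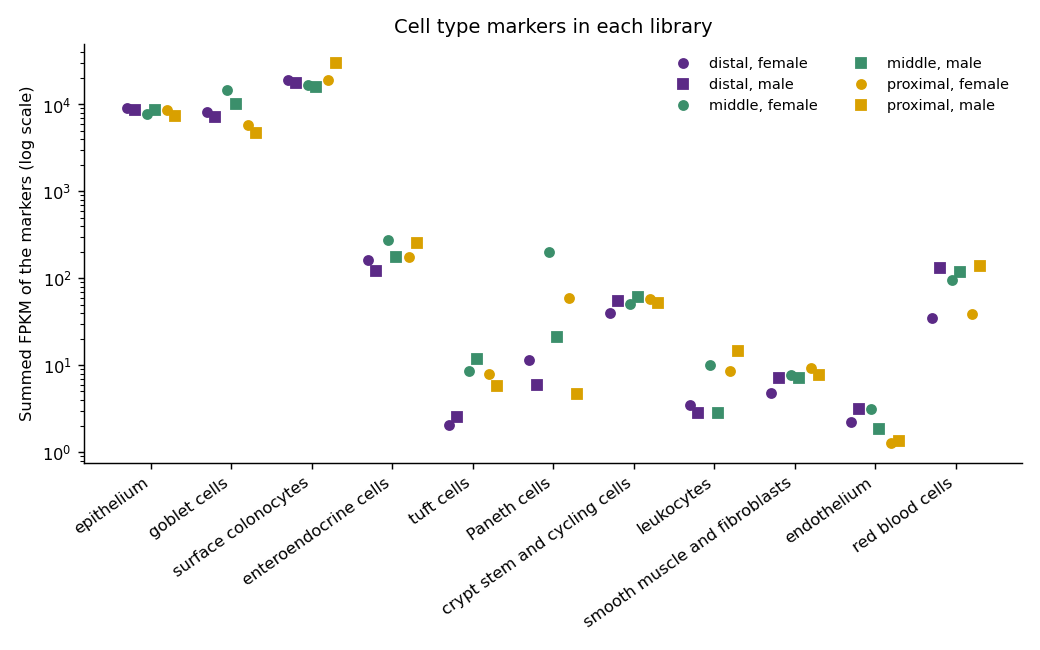
Summed FPKM of the markers of each cell type (log scale) in the 6 libraries, with distal (purple), middle (green) and proximal (yellow) colon from left to right within each cell type; circles are female and squares male libraries. Epithelial markers stay between 7453 and 9168 FPKM, and tuft cell markers are lowest in the distal libraries.

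The genes whose pattern over the 6 libraries was most like that of each member were taken by Pearson's r on log2(FPKM + 1), among 8656 genes with a mean of at least 5 FPKM. The 6 points are pairs of libraries from 3 regions, so r is given only as a description. Nearest to Guca2a were Tubal3, Dnajc22, Arsb and Dpep1 (r = 0.992, 0.990, 0.989 and 0.988). Dpep1, a membrane dipeptidase, averaged 87.8 FPKM in distal, 261 FPKM in middle and 263 FPKM in proximal colon, so that like Guca2a it differed mainly between distal colon and the rest. Nearest to Guca2b were Prss23, Tpmt, Sult1a1 and Stra6l (r = 0.992, 0.992, 0.987 and 0.987). Sult1a1, a sulfotransferase, averaged 246, 304 and 479 FPKM in distal, middle and proximal colon.

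For Gucy2c they were Slc19a1, Pxmp4, Aes and Psap (r = 0.998, 0.996, 0.996 and 0.995). Slc19a1, a folate carrier, averaged 8.22, 8.71 and 11.4 FPKM in distal, middle and proximal colon. The genes nearest to Prkg2 were Fgl2, Sh3bgrl2, H2-T3 and Hsd3b2 (r = 0.996, 0.995, 0.995 and 0.994), of which Fgl2 averaged 1.24, 6.50 and 18.4 FPKM in distal, middle and proximal colon. H2-T3 belongs to a family of similar genes whose counts can exchange reads. Among the members themselves r was highest between Guca2b and Prkg2 (0.945) and lowest between Guca2a and Gucy2c (0.613), while the neighbouring ligand genes had r = 0.757. Many other genes were closer to each member. Among the 8655 genes compared, Prkg2 ranked 81 in likeness to Guca2b, and Guca2b ranked 270 in likeness to Prkg2. For the ligand genes, Guca2b ranked 855 in likeness to Guca2a, and Guca2a ranked 1036 in likeness to Guca2b.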

How the data were processed

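FPKM values per gene, 1 file per library, were used as deposited by the authors. Per the labels' protocols, polyadenylated RNA was selected from total RNA for stranded libraries. Per the submitters' processing notes Cuffdiff 2.2.1, TopHat2 2.1.1, SAMtools 0.1.18 and Bowtie2 2.2.8 were used with mm10. The sources used here do not give their settings, annotation or use of strand. Count models were not applied, since FPKM values are not counts.

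Values were analysed as log2(FPKM + 1) with limma 3.58.1 in R 4.3.3, with region and sex as terms and variances moderated along the mean (2 residual and 3.49 prior degrees of freedom). Genes with at least 1 FPKM in at least 2 libraries were kept, 11815 of 24346. Replicate numbers are not in the labels, and sex matches the libraries across regions. A region by sex term leaves no residual degrees of freedom and was not fitted. The test was tried on simulated data. Depth was estimated from values under 0.2 FPKM of genes with 1 transcript longer than 1500 bases, assuming fragments of 200 bases.

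The 4 genes and the 16 lists (5 of pathway genes, 11 of markers) were chosen with earlier results of these data known. From each list the text names the members called between distal and proximal colon or, where none was, the 2 most abundant; other members are named after their values were seen. A listed gene was left out of its list and is not reported here. The 4 genes most like each member are also named. Alternatives were quantile normalization, no filter, a pseudocount of 0.1, median-ratio scaling, a minimum of 5 FPKM, a model with sex or region removed, no variance trend, and each library left out, when the remaining library of that region was taken to have the same spread as the rest. Python 3.11.15 and matplotlib 3.10.9 drew the figures.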

Additional observations from a re-analysis of the deposited data

Results flagged for a closer look

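For 3 results the female and male libraries moved in opposite directions. There is 1 library per sex and region, so the differences between the sexes were not tested. Guca2a in middle against proximal colon had a log2 difference of -0.68 in females and 0.10 in males. The log2 ratio of Guca2a to Guca2b in distal against proximal colon differed by -1.03 in females and 0.65 in males. The log2 ratio of Guca2a to Gucy2c in middle against proximal colon differed by -0.42 in females and 0.62 in males. Guca2a enters all 3 of them.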

How the results depend on the processing

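The calls of Guca2b and Prkg2 between distal and proximal colon held under every alternative run. The log2 difference of Prkg2 was -7.22 with a pseudocount of 0.1. Other calls were less stable, and the cause was not tested. In the same comparison, the Guca2a difference (-1.69) had an adjusted p of 0.143 with no filter and 0.057 with no replicate block, that is with sex left out. The Gucy2c difference (-0.52) had 0.051 with a pseudocount of 0.1, 0.078 with no filter, 0.051 with a minimum of 5 FPKM, 0.075 with no variance trend and 0.077 with no replicate block. For middle against proximal colon, the Guca2b difference (-0.79) had 0.089 with no filter, 0.057 with no variance trend and 0.080 with no replicate block, and that of Prkg2 (-2.11) had 0.117, 0.057 and 0.105; with a pseudocount of 0.1 it was -2.38 (0.055). Calls were gained for Prkg2 in distal against middle colon with a pseudocount of 0.1 (-4.84) and for Guca2a in the F-test with quantile normalization (F = 19.5).

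Over all genes, 289 calls for middle against proximal colon became 4 with no filter, 187 with no variance trend and 24 with no replicate block. The 59 calls for distal against middle colon became 2, 29 and 17 under the same settings, and the 1042 calls of the F-test became 366 with no filter and 454 with no replicate block.

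With each library left out in turn, the log2 differences for distal against proximal colon ranged from -2.26 to -1.12 for Guca2a and -0.67 to -0.36 for Gucy2c. For middle against proximal colon they ranged from -0.86 to 0.28 for Guca2a, which reversed only without the female proximal library, from -0.89 to -0.70 for Guca2b and from -2.66 to -1.57 for Prkg2. For distal against middle colon they ranged from -0.73 to -0.61 for Guca2b and -2.80 to -1.71 for Prkg2, and both calls were gained without either proximal library, that of Prkg2 also without the female middle one. The F of Guca2a ranged from 2.56 to 18.8. Counts over all genes ranged from 334 to 1518 for distal against proximal (main 1668), 0 to 777 for middle against proximal, 0 to 426 for distal against middle, 3 to 25 for female against male (main 5) and 306 to 1343 for the F-test. The lowest count for middle against proximal colon was without the female middle library, and the lowest for distal against proximal colon without the male distal library. Called members in distal against proximal colon numbered 1 to 3 for the removal of cGMP (main 4) and 0 to 6 for transporters and scaffolds (main 5). The first list had 2 with a minimum of 5 FPKM and the other 2 with no filter. Of the other named genes, Krt8 (-0.04 to 0.27) reversed to -0.04 without the male proximal library, and Hba-a1 (-0.56 to 0.36) to 0.31 without the male proximal and 0.36 without the female distal library. Neither was called.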
